A study of Mus musculus with 10 samples.

Results

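The 45 genes described here encode the digestive enzymes of the lysosome, a few proteins of its membrane and the transcription factors that switch such genes on. They were taken by name, from a list drawn up with earlier results of these data known. Every row of the expression table of interscapular brown adipose tissue (iBAT) whose symbol is one of the 45 was used, out of 15075 genes. All 45 passed the minimum level for testing, as did 11244 genes in all. By role they are 10 cysteine cathepsins including legumain, 3 other proteases, 11 glycosidases, 5 sulfatases, 7 genes of lipid breakdown and cholesterol export, 6 membrane proteins and 3 factors of the MiT-TFE family. Of these, Ctss and Laptm5 are known from cells of the myeloid lineage, Laptm5 from blood cells more widely, and both are called myeloid below. They were set against the other 43, most of which are made by many cell types. Among those 43, Ctsk, Ctsc and Mitf are also known for roles in particular cells.

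The lysosome is an acidic compartment in which hydrolases break down proteins, glycans, lipids and the contents of autophagosomes and phagosomes. Most of its enzymes are made in every cell as housekeeping products, while macrophages and osteoclasts add their own cathepsins and membrane proteins. TFEB, TFE3 and MITF are related basic helix-loop-helix factors that bind a short palindrome in the promoters of many lysosomal genes, and the kinase mTORC1 holds them in the cytoplasm when nutrients are plentiful. In brown fat, lysosomes serve lipid breakdown and the removal of mitochondria.

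RNA was sequenced from the iBAT of 5 Control and 5 AdCKO mice, with 1 library per mouse. AdCKO mice are homozygous for a Crls1 allele in which exon 4 lies between loxP sites, and carry Cre under the Adipoq promoter, which is active in adipocytes. Control mice are homozygous for the same floxed allele and lack Cre, although the labels call them wild-type, so that a Control animal with Cre is not part of the comparison. Both groups were C57BL/6 mice of 20 weeks kept at room temperature, and the deletion is present from the time the promoter becomes active. Crls1 makes cardiolipin, the signature phospholipid of mitochondria, and its level was 1060.2 ± 191 in Control and 217 ± 26.4 in AdCKO, in normalized reads per kb (mean ± SD of 5 libraries each), or 20.5% of Control. The 5 Control libraries lay between 813 and 1291, and no AdCKO library was above 249.

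Values are normalized reads per kb of counted exon, written below as reads per kb, and they can be compared between genes. A difference is the mean of log2(value + 1) in AdCKO minus that in Control, which understates the change of low genes, and calls rest on limma over all 11244 genes, at an adjusted p under 0.01. The summed level of 16 macrophage markers was 941 to 2657 in Control and 8914 to 12108 in AdCKO, and that of 6 fibroblast markers was 1010.3 to 1316 and 4023 to 5881. Summed markers of brown adipocytes were at 216150 to 253965 in Control and 133628 to 159995 in AdCKO. Skeletal muscle markers summed to 108 to 137 in Control and to 140 and 153 in AdCKO replicates 5 and 3, but to 6264, 24603 and 9508 in AdCKO replicates 1, 2 and 4. In whole tissue, a change in the number of cells of a type and a change in RNA per cell cannot be told apart, and the part of these markers in the results was not tested.

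More of the lysosomal genes were higher than lower in AdCKO, and the differences ran from -0.74 to 4.63. Among the 45, 24 rose, 5 fell and 16 were not called, and the median difference was 0.37 on the log2 scale, against -0.01 over all tested genes. In all 29 members (64.4%) were called, where 53.6% of all tested genes were called. Higher calls made up 53.3% of the members and 25.6% of all tested genes, and lower calls 11.1% of the members and 28.0% of all tested genes. The values of Control and AdCKO did not overlap for 29 members, a state found in 50.9% of all tested genes. When every library was instead set to the same total, the median difference of all tested genes moved up by 0.47, 39 members were called higher and 1 lower, and the share of higher calls among all calls went from 47.7% to 86.1% over all genes and from 82.8% to 97.5% among the members. With equal totals 6811 of the 11244 tested genes were called higher and 1098 lower. In both scalings 35 of the 45 lay above the median of all tested genes. The calls of Arsa and Arsb were lost with equal totals, and the differences of Ctsf, Fuca1, Sgsh, Ids, Lipa, Npc2 and Mcoln1 changed from below to above 0. Ctsb, Ctsd, Ctsz, Tpp1, Gaa, Lamp2 and Scarb2, which were not called, were called higher both with equal totals and with quantile normalization.

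**Figure D1:**
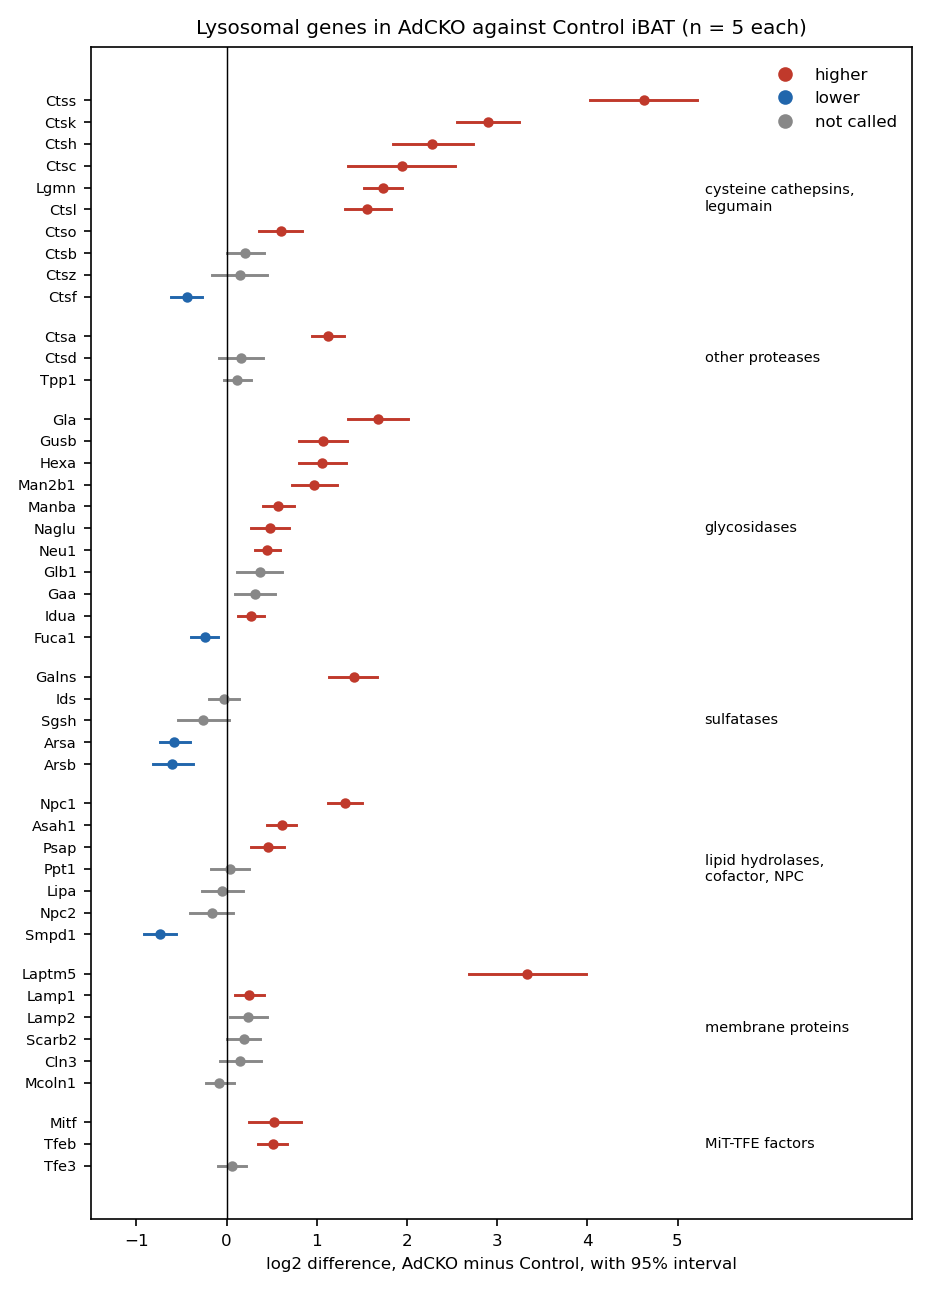
Difference between AdCKO and Control for each of the 45 genes, grouped by role, on the scale of log2(value + 1) with its 95% interval from limma (n = 5 each). Red marks genes called higher, blue genes called lower and grey genes not called; Ctss lies at 4.63, Laptm5 at 3.33 and Ctsk at 2.90, and the lowest gene is Smpd1 at -0.74.

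Of the 3 MiT-TFE factors, which act upstream of the enzymes, Tfeb and Mitf rose (66.7%, against 25.6% of all tested genes) and Tfe3 was not called. However, Tfeb, Mitf and Tfe3 were all called higher with equal totals, at 0.99, 0.99 and 0.54, where the median of all tested genes was 0.46. Tfeb was at 77.4, 83.9, 84.3, 89.2 and 82.3 reads per kb in Control replicates 1 to 5 and at 105, 127, 130, 111 and 126 in AdCKO replicates 1 to 5. Every AdCKO library was above every Control library, and the difference was 0.51 ± 0.07 (SE; adjusted p = 6.9e-05). Mitf, the factor of pigment cells and osteoclasts, was low, at 15.4, 18.3, 17.2, 14.6 and 13.2 in Control and 22.1, 27.8, 19.3, 28.0 and 19.9 in AdCKO. Its groups also stood apart, with the AdCKO replicates 2 and 4 well above the other AdCKO libraries, and it rose by 0.53 ± 0.13 (adjusted p = 0.00303). Without AdCKO replicates 1, 2 and 4, which carry the skeletal muscle markers, the difference of Mitf was 0.31 and was not called (adjusted p = 0.095), while Tfeb was at 0.61 (adjusted p = 0.000405). With quantile normalization Mitf was at 0.20 and was not called either (adjusted p = 0.155).

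Tfe3 was the most abundant of the family in Control, with 121, 143, 121, 145 and 143 reads per kb, against 140, 148, 137, 135 and 141 in AdCKO. The groups overlapped, and its difference of 0.06 ± 0.07 was not called (adjusted p = 0.47), with a 95% interval from -0.09 to 0.22. With equal totals it was 0.54 (adjusted p = 1.38e-05) and with quantile normalization 0.12 (adjusted p = 0.124). A further relative, Tfec, was under the minimum level, at 3.40 ± 0.384 in Control and 5.70 ± 0.991 in AdCKO. These are levels of mRNA, whereas the activity of the family is set largely by where the proteins sit in the cell, which was not measured.

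**Figure D2:**
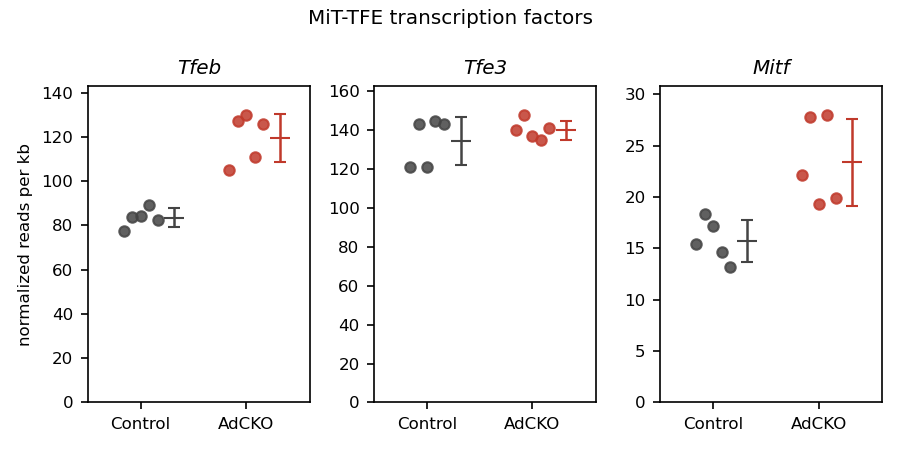
Reads per kb of Tfeb, Tfe3 and Mitf in each library (points, replicates 1 to 5 from left to right) with the group mean and SD beside them; each panel has its own axis from 0. The 5 AdCKO points of Tfeb lie between 105 and 130 and those of Control between 77.4 and 89.2, while the points of Tfe3 share a range.

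Around these factors, 22 of 24 listed genes of mTORC1, its lysosomal anchor and calcineurin were tested, of which 3 rose, 7 fell and 12 were not called, with a median difference of -0.17. The shares called were 13.6% higher and 31.8% lower, where all tested genes gave 25.6% and 28.0%. With equal totals 13 were called higher and 1 lower, where 6811 of the 11244 tested genes were called higher and 1098 lower. Those that rose were Fnip2, a partner of folliculin, from 19.5 ± 3.27 to 48.9 ± 3.39 (difference 1.30, adjusted p = 8.75e-07), Rragd, a Rag GTPase of the mTORC1 anchor, from 7.65 ± 2.17 to 29.0 ± 9.49 (1.78, adjusted p = 2.5e-05), and Ppp3ca, a catalytic subunit of calcineurin, by 0.43. Ppp3cb, another catalytic subunit, was at -0.20 and was not called (adjusted p = 0.0177), and with equal totals it was called higher, at 0.28. Mtor itself fell by 0.75 (adjusted p = 7.43e-06) and Tsc2, an inhibitor of the pathway, fell by 0.52 (adjusted p = 3.63e-05). Rptor, an mTORC1 subunit, and the kinase Gsk3b also fell, by 0.45 and 0.75, as did the anchor subunits Lamtor2, Lamtor4 and Lamtor5. With equal totals, Fnip2, Rragd and Ppp3ca were at 1.76, 2.23 and 0.91 and Mtor was still called lower, at -0.28 (adjusted p = 0.00579), but Tsc2, Rptor, Gsk3b, Lamtor2 and Lamtor4 were not called and Lamtor5 was called higher, at 0.24.

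The palindrome bound by the family gives a sequence view of the members. In the reference table of RefSeq windows (build GRCm38.p6, 250 bases before to 50 after each annotated start), 40 of the 45 genes had a window. The core TCACGTGA, which reads the same on both strands, was present for 5 of the 40 genes (12.5%), against 304 of 27025 genes (1.12%) with a window and 2.24% of those that were tested here. The shorter TCACGTG, searched on both strands, was present for 12 members (30.0%) and 4.29% of all genes (7.09% of those tested here), and CACGTG, which both longer forms contain, for 14 members (35.0%) and 8.09% of all genes (11.9% of those tested here). The genes with the full core are shown because they are the members whose promoter letters carry the element, each with 20 bases on either side, in the direction of transcription, and with the core in capitals.
Ctsa (chr2:164833740-164833787, plus strand): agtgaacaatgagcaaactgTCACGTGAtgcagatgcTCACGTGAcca
Ctsd (chr7:142387899-142387946, minus strand): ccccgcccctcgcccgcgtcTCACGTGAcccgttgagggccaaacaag
Gla, distal (chrX:134601206-134601253, minus strand): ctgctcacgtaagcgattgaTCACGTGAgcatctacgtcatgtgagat
Gla, proximal (chrX:134601173-134601220, minus strand): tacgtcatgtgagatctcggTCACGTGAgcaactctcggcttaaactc
Cln3 (chr7:126583331-126583378, minus strand): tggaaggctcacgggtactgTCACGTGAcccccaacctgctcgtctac
Mcoln1 (chr8:3500453-3500500, plus strand): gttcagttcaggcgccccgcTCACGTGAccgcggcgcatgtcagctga
The first base of the core lay 13 bases before the start in Ctsa, 99 in Ctsd, 228 and 195 in Gla, 122 in Cln3 and 46 in Mcoln1, and Ctsa held a second copy just after its start.

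Of these 5 genes, Ctsa and Gla rose, by 1.13 and 1.68, and Ctsd, Cln3 and Mcoln1 were not called, at 0.16, 0.15 and -0.08. With equal totals those 3 were called higher, at 0.64, 0.63 and 0.40, so that all 5 were. Of the 12 members with TCACGTG, 5 rose, 1 fell and 6 were not called, and with equal totals 10 were called higher and 0 lower. Of all 45 members 24 rose and 5 fell, and over all tested genes 25.6% rose and 28.0% fell. With equal totals 39 of the 45 were called higher and 1 lower. Under that scaling 6811 of the 11244 tested genes were called higher, and the median of all tested genes was 0.46. A match to these letters is a description of the window and not a measured binding site, and Tfeb and Mitf, which start at several promoters, are each represented by a single one.

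Among the cysteine cathepsins, the papain-like proteases that digest proteins inside the lysosome, 7 of 10 rose, 1 fell and 2 were not called, with a median difference of 1.65. Ctss (RefSeq NM_021281, mm9 chr3:95330708-95360327, plus strand) is the cathepsin of antigen-presenting cells that trims the invariant chain of MHC class II. It was at 38.2, 56.8, 123, 36.6 and 47.0 reads per kb in Control and at 1359, 1485, 1324, 1600 and 1090 in AdCKO. The lowest AdCKO library was far above the highest Control library, and replicate 3 stood above the other Controls. Ctss rose by 4.63 ± 0.27 (adjusted p = 5.21e-08), a 22.7-fold ratio of the means, which was the largest difference of the 45 in these libraries; without Control replicate 3 it was 4.92.

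Ctsk lies beside Ctss on the same strand (mm9 chr3:95303132-95313309) and encodes the collagen-degrading cathepsin of osteoclasts. Its values were 18.9, 24.4, 24.9, 20.4 and 18.2 in Control and 132, 214, 186, 187 and 123 in AdCKO, a 7.88-fold ratio. The groups were well apart, and the difference of 2.90 ± 0.16 had the smallest p of the members (adjusted p = 3.01e-08). Of the osteoclast genes listed that could be tested, Acp5, the tartrate-resistant phosphatase, fell by 0.89 (adjusted p = 2.69e-05) and Nfatc1 was at -0.07 (adjusted p = 0.627), while Dcstamp and Ocstamp were under the minimum level.

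Ctsh, an aminopeptidase, rose from 45.1 ± 16.8 to 215 ± 32.2 (difference 2.28 ± 0.20, adjusted p = 1.13e-06), and Ctsc, which activates the serine proteases of immune granules, from 63.5 ± 30.4 to 231 ± 52.8 (1.94 ± 0.27, adjusted p = 4.95e-05). Legumain (Lgmn), the asparaginyl endopeptidase that processes other cathepsins, went from 191 ± 9.14 to 644 ± 93.0 (1.74 ± 0.10, adjusted p = 4e-08). Ctsl, a major endopeptidase of most cells, went from 521 ± 27.4 to 1560 ± 298 (1.56 ± 0.12, adjusted p = 3.09e-07). Ctso rose less, by 0.60 ± 0.11 (adjusted p = 0.000399), and lost its call without the AdCKO replicates 1, 2 and 4 (0.50, adjusted p = 0.0148).

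Ctsb, the most abundant cysteine cathepsin here, was at 3807, 3988, 3841, 3441 and 3512 in Control and at 4083, 4724, 4120, 4939 and 3656 in AdCKO. The groups overlapped and the difference of 0.21 ± 0.10 was not called (adjusted p = 0.0783), although it was called at 0.69 with equal totals and at 0.92 with quantile normalization. On the opposite strand, exons of Fdft1 cover 16.2% of the annotated Ctsb exons, and Fdft1 fell by 2.06. Counting is not stated to have used strand, so that reads from such overlaps cannot be told apart. Ppt1, Idua, Npc1 and Ctsz also have exon bases opposite those of other genes, at most 3.51% of them. Ctsz, a carboxypeptidase, was also not called, at 1589 ± 350 in Control and 1731 ± 166 in AdCKO (adjusted p = 0.377).

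Against the rest of the group, Ctsf was lower: 230, 237, 195, 218 and 207 in Control and 151, 176, 161, 139 and 171 in AdCKO. No AdCKO library reached the lowest Control library, and the difference was -0.44 ± 0.08 (adjusted p = 0.000411), which turned to 0.04 with equal totals (adjusted p = 0.656). The inhibitors of these proteases, the cystatins, had 2 tested genes. Cst3, the secreted cystatin C, fell by 0.47 from 6444 ± 871 (adjusted p = 0.00149), and Cstb, which works inside the cell, rose by 0.92 from 616 ± 62.9 (adjusted p = 7.94e-05). With equal totals Cst3 was at 0.01 and was not called (adjusted p = 0.896), while Cstb was called higher.

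Of the other proteases, Ctsa rose and Ctsd and Tpp1 were not called. With 3 genes, 1 rise is 33.3%, where 25.6% of all tested genes rose. Ctsa, the protective protein that stabilizes the sialidase and β-galactosidase, was at 193, 207, 234, 199 and 210 in Control and 462, 489, 430, 501 and 400 in AdCKO. The AdCKO libraries formed a narrow range about 2.19-fold above Control, with a difference of 1.13 ± 0.08 (adjusted p = 1.81e-07); 10.5% of its annotated exon bases lie opposite exons of Pltp, which rose by 0.95. Ctsd, the aspartic protease and the most abundant of the 45, was at 8385 ± 840 and 9399 ± 1098 (0.16 ± 0.11, adjusted p = 0.21). Tpp1, a tripeptidyl peptidase, was at 347 ± 10.02 and 378 ± 33.4 (0.12 ± 0.07, adjusted p = 0.142).

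Glycosidases remove sugars from glycoproteins, glycolipids and glycosaminoglycans, and 8 of the 11 rose, 1 fell and 2 were not called, with a median difference of 0.48. The shares were 72.7% higher and 9.09% lower, where all tested genes gave 25.6% and 28.0%. Gla, the α-galactosidase whose loss causes Fabry disease, was at 19.1, 13.8, 19.7, 12.4 and 14.3 in Control and at 55.2, 58.9, 58.7, 53.0 and 37.8 in AdCKO. All AdCKO values were above all Control values, with replicate 5 below the other AdCKO libraries, and the difference was 1.68 ± 0.15 (adjusted p = 1.35e-06). Gusb (β-glucuronidase), Hexa (the α subunit of hexosaminidase) and Man2b1 (α-mannosidase) followed, with differences of 1.07 ± 0.12, 1.06 ± 0.12 and 0.97 ± 0.11. Smaller rises were measured for Manba (β-mannosidase) at 0.57, Naglu, which acts on heparan sulfate, at 0.48, the sialidase Neu1 at 0.45 and the iduronidase Idua at 0.27. Idua (adjusted p = 0.0029) lost its call with quantile normalization (0.14) and Naglu without the AdCKO replicates 1, 2 and 4 (0.33).

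Fuca1, the α-fucosidase, went the other way, with 233, 246, 225, 213 and 231 in Control and 206, 205, 169, 195 and 195 in AdCKO. The gap between the groups was narrow, and its difference of -0.24 ± 0.07 (adjusted p = 0.00806) lost the call in 7 of the 10 fits that left out 1 library and turned to 0.24 with equal totals (adjusted p = 0.00438). Gaa (acid α-glucosidase, which digests glycogen) and Glb1 (β-galactosidase) were at 0.31 ± 0.10 and 0.37 ± 0.11 and just missed the call, with adjusted p of 0.0167 and 0.0132. With Control replicate 4 left out Gaa was called, and so was Glb1 without AdCKO replicate 3 or 5.

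Sulfatases, which strip sulfate from glycosaminoglycans and sulfatides, were the role group with the lowest median, at -0.26, or at 0.21 with equal totals, where the median of all tested genes was 0.46. Of the 5, 1 rose (20.0%), 2 fell (40.0%) and 2 were not called, where 25.6% of all tested genes rose and 28.0% fell. Galns, which acts on keratan and chondroitin sulfate, was the lowest of the 45 in Control, at 16.2, 13.3, 15.5, 12.8 and 15.1, and stood at 46.7, 43.7, 37.5, 45.3 and 30.3 in AdCKO. Its groups were well apart (difference 1.41 ± 0.12, adjusted p = 9.17e-07). Arsa, the sulfatide sulfatase, was at 164, 177, 171, 176 and 193 in Control and at 114, 112, 127, 105 and 132 in AdCKO. Arsb, which acts on dermatan sulfate, was at 170, 159, 136, 131 and 131 in Control and at 100, 92.0, 78.2, 109 and 98.8 in AdCKO.

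For both arylsulfatases each AdCKO library was below each Control library, with differences of -0.58 ± 0.08 (adjusted p = 3.01e-05) and -0.60 ± 0.10 (adjusted p = 0.000271), which with equal totals shrank to -0.10 and -0.12 and were not called. Sgsh, which acts on heparan sulfate, was at 37.5 ± 5.92 and 31.1 ± 4.28 (-0.26 ± 0.13, adjusted p = 0.101) and was called at -0.37 without Control replicate 4, its lowest Control library. Exons of Card14, at 0.857 reads per kb in Control, lie opposite 22.1% of the Sgsh exon bases. Ids, the iduronate sulfatase, was level at 56.9 ± 5.52 and 55.6 ± 3.53 (adjusted p = 0.773).

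The genes of lipid breakdown and cholesterol export divided, with 3 of 7 higher (42.9%), 1 lower (14.3%) and 3 not called. All tested genes gave 25.6% higher and 28.0% lower. Npc1, the membrane exporter of cholesterol, was at 144, 105, 120, 117 and 133 in Control and at 283, 294, 304, 313 and 340 in AdCKO. The AdCKO libraries were 2.48-fold higher on average, with a difference of 1.31 ± 0.09 (adjusted p = 1.29e-07). Its soluble partner Npc2 was not called, at 1279 ± 142 and 1143 ± 149 (-0.16 ± 0.11, adjusted p = 0.194). The 2 proteins act in turn, NPC2 handing cholesterol to NPC1.

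Smpd1, the acid sphingomyelinase, gave 451, 514, 397, 501 and 432 in Control and 264, 276, 255, 264 and 309 in AdCKO. It was the only one of the 5 lower members whose call held under each other filter, pseudocount, scaling and model tried and when any 1 library was left out, with a difference of -0.74 ± 0.08 (adjusted p = 8.58e-06) and a range over those settings of -0.79 to -0.26. The next enzyme of the same path, the acid ceramidase Asah1, rose from 162 ± 10.99 to 249 ± 20.6 (0.61 ± 0.07, adjusted p = 1.53e-05). Psap, the precursor of the saposin cofactors and the second most abundant of the 45, rose from 5525 ± 184 to 7596 ± 648 (0.46 ± 0.08, adjusted p = 0.00048), but was not called without the AdCKO replicates 1, 2 and 4 (0.40, adjusted p = 0.0137).

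Lipa, the acid lipase that releases fatty acids from lipid droplets taken into lysosomes, was at 827 ± 119 in Control and 795 ± 59.7 in AdCKO. Its groups overlapped and its difference of -0.05 ± 0.10 was not called (adjusted p = 0.705), with a 95% interval from -0.27 to 0.18; with equal totals it was 0.43 and with quantile normalization 0.21. Ppt1, a thioesterase that removes palmitate from proteins, was not called either, at 213 ± 23.5 and 219 ± 24.7 (0.04 ± 0.10, adjusted p = 0.72).

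Of the 6 membrane proteins, 2 rose (33.3%) and 4 were not called, where 25.6% of all tested genes rose. Laptm5 (RefSeq NM_010686, mm9 chr4:130469249-130492063, plus strand), a transmembrane protein of blood cells, was at 43.2, 64.0, 152, 47.1 and 50.1 in Control and at 804, 627, 517, 808 and 533 in AdCKO. Replicate 3 was the highest Control library and still below all AdCKO libraries, and the difference was 3.33 ± 0.29 (adjusted p = 1.1e-06), or 3.65 without that replicate. Lamp1, the main glycoprotein of the lysosomal membrane in all cells, was at 2803, 2813, 2505, 2841 and 2734 in Control and 3150, 3444, 3370, 3325 and 3019 in AdCKO.

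The groups of Lamp1 did not overlap, but by a small margin: its 0.25 ± 0.07 (adjusted p = 0.00861) lost the call in 9 of the 10 fits that left out 1 library, with adjusted p up to 0.0275. On the opposite strand Grtp1, which fell by 1.05, covers 7.85% of its exon bases. Lamp2 was at 323 ± 33.2 and 383 ± 44.4 (0.24 ± 0.09, adjusted p = 0.0399), and Scarb2, the receptor that carries β-glucocerebrosidase to lysosomes, at 361 ± 37.9 and 411 ± 28.9 (0.19 ± 0.08, adjusted p = 0.059). Cln3 (0.15 ± 0.10, adjusted p = 0.207) and the calcium channel Mcoln1 (-0.08 ± 0.07, adjusted p = 0.363) were not called.

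The myeloid Ctss and Laptm5 were each compared with a broadly expressed gene within each library, so that the scaling of the library drops out. Ctss stood at 1.00, 1.42, 3.21, 1.06 and 1.34% of the level of Ctsb in Control and at 33.3, 31.4, 32.1, 32.4 and 29.8% in AdCKO. The AdCKO libraries shared a narrow band, whereas replicate 3 stood out among the Controls. The log2 ratio differed by 4.42 between the groups (p = 0.0079 by an exact permutation of the libraries, two-sided, which 5 against 5 libraries cannot go under and which was the same after adjustment over the 2 pairs). The groups of Ctss were already far apart and Ctsb changed little, so this p adds nothing to that separation.

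Laptm5 stood at 1.54, 2.27, 6.09, 1.66 and 1.83% of Lamp1 in Control and at 25.5, 18.2, 15.3, 24.3 and 17.7% in AdCKO. Again no library of one group reached the other, and the log2 ratio differed by 3.08 (p = 0.0079 in the same exact permutation). That p likewise follows from the values of Laptm5, whose groups were already apart. The other 43 members had a median difference of 0.31, with 22 higher, 5 lower and 16 not called, while Ctss and Laptm5 had a median of 3.98.

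**Figure D3:**
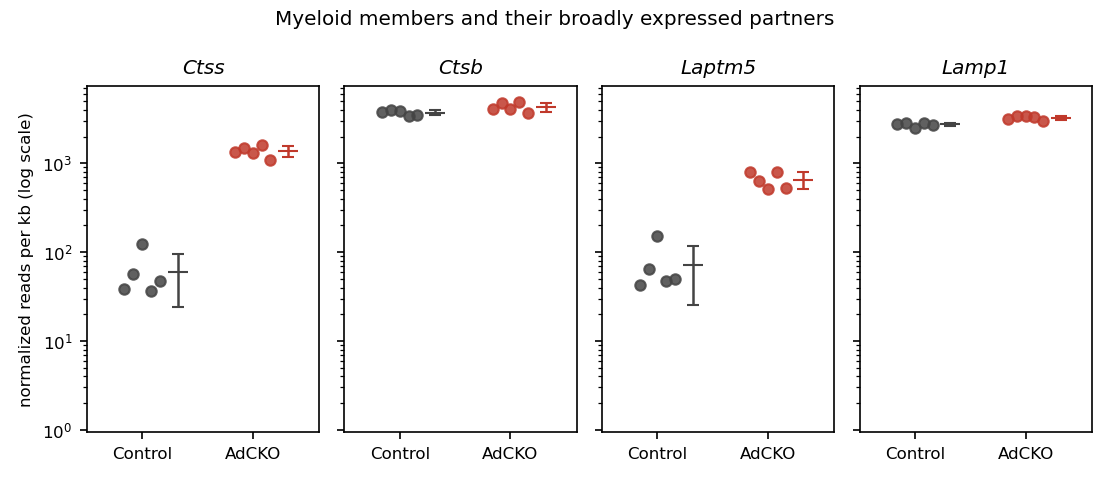
Reads per kb on a shared log axis for the myeloid Ctss and Laptm5 and their broadly expressed partners Ctsb and Lamp1 in each library (points, replicates 1 to 5 from left to right), with group mean and SD. The Ctss points lie at 36.6 to 123 in Control and 1090 to 1600 in AdCKO, and the Ctsb points at 3441 to 3988 and 3656 to 4939.

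Despite their rise, Ctss and Laptm5 each remained a small share of the summed level of the 45 genes. These shares are of single genes and not of a cell type, because most of the other members are made by many cell types. How much of the sum came from myeloid cells was not tested. The 45 values summed to between 28794 and 31687 reads per kb in Control and between 35476 and 42888 in AdCKO, without overlap. Ctsd, Psap and Ctsb alone made up 58.0 to 61.6% of the sum in Control and 53.2 to 57.0% in AdCKO. Ctss went from 0.124 to 0.428% of the sum in Control to between 3.03 and 3.73% in AdCKO, and Laptm5 from 0.150 to 0.529% to between 1.46 and 2.16%.

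Calls were also set beside the level in Control. Of the 19 members with a Control mean under 100 reads per kb, 15 rose, 0 fell and 4 were not called (median difference 0.57), and of the 26 at 100 or more, 9 rose, 5 fell and 12 were not called (median 0.18). Among all tested genes, 33.1% rose and 15.9% fell under 100 reads per kb, and 13.7% rose and 47.3% fell at 100 or more, with medians of 0.13 and -0.26. The split uses the same Control values as the difference, so it is no independent measure. At the upper end, Ctsd, Ctsb, Ctsz, Npc2 and Lipa were not called, and Psap and Lamp1 rose by 0.46 and 0.25. Next by level, Ctsl rose by 1.56 and Smpd1 fell by 0.74. Ctsd, Ctsb and Ctsz were called higher with equal totals and with quantile normalization.

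**Figure D4:**
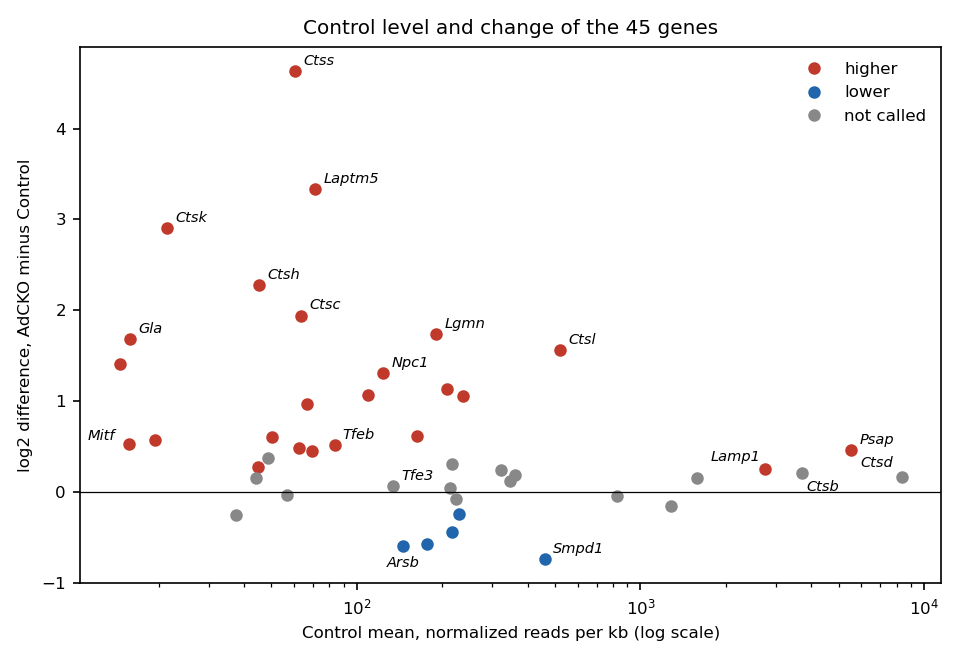
Difference between AdCKO and Control on the log2 scale against the Control mean in reads per kb (log axis) for the 45 genes, colored by call. Of the 26 genes with a Control mean of at least 100, 9 were called higher, and of the 19 under 100, 15 were, where 13.7% and 33.1% of all tested genes at these levels were called higher.

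The Control libraries also differed among themselves. Replicate 3, which had the highest summed macrophage markers of the Controls at 2657 (941 to 1597 in the others), was also above the median of the other Controls for Laptm5 (3.13-fold), Ctss (2.90-fold), Ctsc (2.33-fold) and Ctsh (1.89-fold). Man2b1, Gla, Hexa, Ctso and Ctsk were 1.27- to 1.44-fold above it, and these 9 were the members over 1.2-fold. How many of all genes were over 1.2-fold was not counted. Other members were low in replicate 3, with the lowest ratios to that median at 0.678 for Ctsz, 0.729 for Gaa, 0.830 for Lipa and 0.834 for Smpd1. Among the members with smaller ratios that rose by at least 1.07 in AdCKO, Lgmn, Ctsl, Npc1 and Gusb were at 0.949 to 0.995 of the median of the other Controls in that library, and Galns and Ctsa were at 1.09 and 1.15. With Control replicate 3 left out, 27 members were called, and Ctsc and Ctsh were at 2.17 and 2.47.

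Over all tested genes, pairs of AdCKO libraries had correlations of 0.957 to 0.989 and pairs of Control libraries of 0.985 to 0.995, across genes within the libraries. Replicate 5 gave the lowest AdCKO value for 21 of the 45 genes and for 15 of the 24 higher ones, and replicate 4 gave the highest for 21 and 12. Summed macrophage markers were also lowest in replicate 5, at 8914, and highest in replicate 4, at 12108, with replicate 2 close to it at 12033. Fibroblast markers were lowest in replicate 5, at 4023 against 5270 to 5881 in the others, and brown adipocyte markers were highest in replicate 5, at 159995, and lowest in replicate 4, at 133628. Npc1 was an exception, with its highest value of 340 in replicate 5. The part of these cell types in these orders was not tested.

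**Figure D5:**
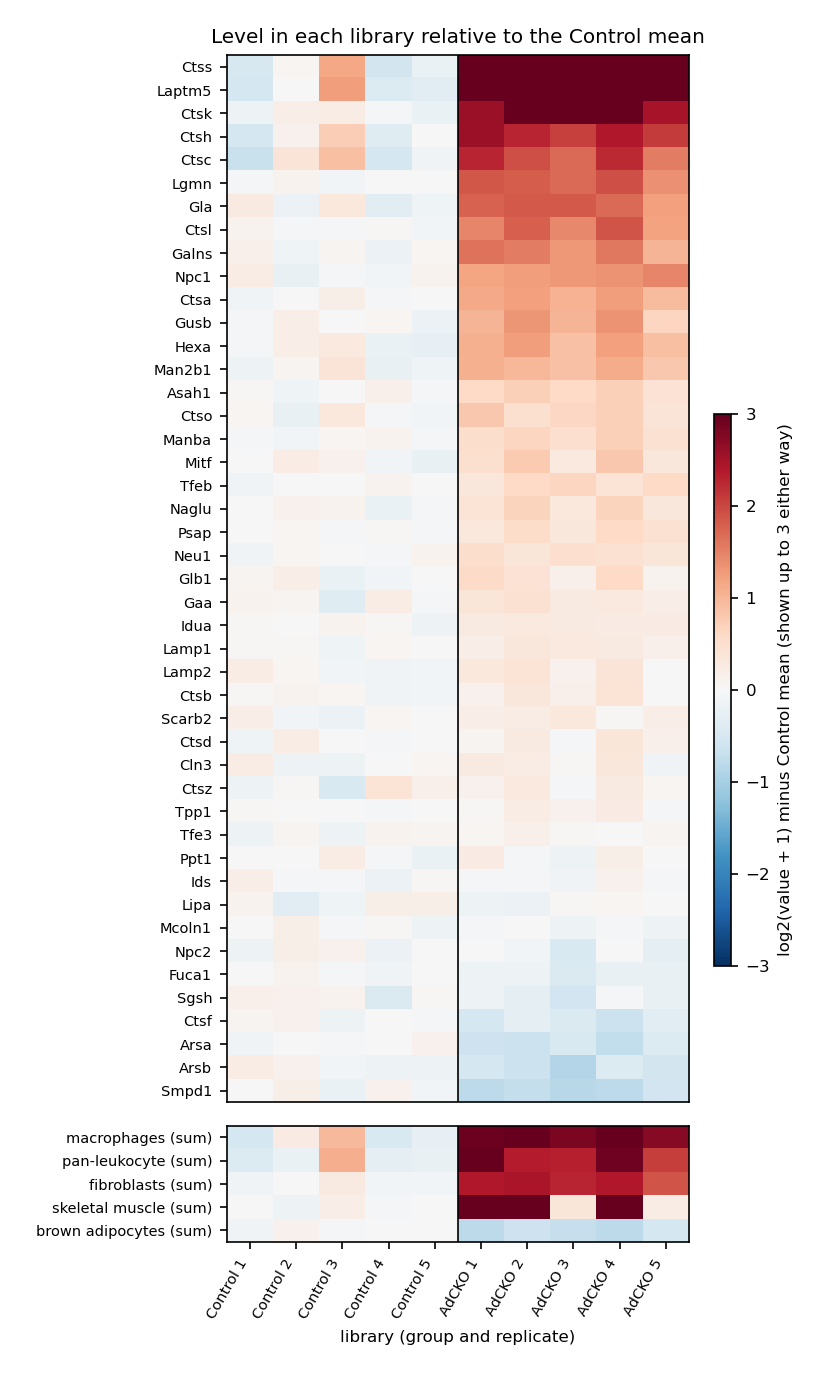
Level of each of the 45 genes in each library as log2(value + 1) minus the Control mean, ordered by the difference between the groups, with 5 summed marker lists on the same scale in the lower panel. Colors stop at 3 in either direction; Control replicate 3 is red for Ctss, Laptm5, Ctsc and Ctsh and for the macrophage sum, and the skeletal muscle sum is high in AdCKO replicates 1, 2 and 4.

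The wider lysosome was followed in lists of genes that are not members. Of the vacuolar ATPase, the proton pump that acidifies the lysosome, 20 subunits were tested, of which 11 rose and 1 fell, with a median difference of 0.35. The shares were 55.0% higher and 5.00% lower, where all tested genes gave 25.6% and 28.0%. Atp6v0d2, a subunit known from macrophages and osteoclasts, rose from 6.66 ± 0.429 to 177 ± 41.8 (4.51 ± 0.15, adjusted p = 8.15e-10), and Tcirg1, the a3 subunit of the same cells, from 62.8 ± 6.97 to 232 ± 33.2 (1.86 ± 0.11, adjusted p = 5.86e-08). The a1 subunit Atp6v0a1 rose by 0.82, while Atp6v0a2 fell by 0.78 (adjusted p = 1.26e-05), or by 0.30 with equal totals (adjusted p = 0.00885).

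Of 22 further enzymes and cofactors tested, 6 rose (27.3%) and 8 fell (36.4%), with a median of -0.17. All tested genes gave 25.6% higher and 28.0% lower. Hyal1, a hyaluronidase, fell by 2.24 (337 ± 12.1 to 71.5 ± 13.0, adjusted p = 2.63e-08) and the sorting receptor Sort1 fell by 0.87, whereas the acid nuclease Dnase2a rose by 1.15. Of 21 further membrane proteins, 9 rose (42.9%) and 4 fell (19.0%), with a median of 0.20. The macrophage proteins Cd68 and Slc11a1 rose by 4.09 and 2.74, the tetraspanin Cd63 by 2.54 and the ion channel Tpcn2 by 2.01 (25.4 ± 1.96 to 106 ± 14.5, adjusted p = 1.57e-08). Abca2, Tmem192, Tmem175 and Tpcn1 fell, by 1.37, 0.46, 0.36 and 0.37, of which Abca2 alone was still called lower with equal totals, at -0.89. Hyal1 and Sort1 were called lower there too, at -1.77 and -0.39. Over these lists with the cystatins and the mTORC1 list, 87 of 99 genes were tested, 30 rose (34.5%) and 21 fell (24.1%), and the median was 0.08. With equal totals 59 were higher and 6 lower, where all 11244 tested genes gave 6811 and 1098.

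Marker lists of the cells the tissue can hold gave the setting of these values. Over all tested genes, 25.6% rose and 28.0% fell. Of 16 macrophage markers 15 rose, with a median of 2.38, and Cd163 was not called; all 8 pan-leukocyte and all 6 fibroblast markers rose, with medians of 2.59 and 2.39. Of 10 brown adipocyte markers, 7 fell, and of 6 endothelial markers 1 rose. With equal totals 4 of the brown adipocyte markers were called lower and 2 higher, with a median of -0.09 in place of -0.57. Quantile normalization left 4 of them called, with a median of -0.08. Of the endothelial markers, 5 were called higher with equal totals. Dendritic cell markers rose for 3 of 4 tested, T and NK cell markers for 2 of 5 and B cell markers for 0 of 2. The T and NK count was 0 without Control replicate 1, 2, 4 or 5, without AdCKO replicate 4, under the replicate block and with quantile normalization, and the T and NK sum was 245 in AdCKO replicate 1 against 65.7 to 107 in the other AdCKO libraries. The B cell sum was 112 in AdCKO replicate 1 against 17.4 to 24.0 in the other AdCKO libraries. None of the 4 neutrophil markers in the table passed the minimum level. Of 4 sex-linked genes 1 was called, lower, a count of 0 to 2 with 1 library left out, and with equal totals 2 were called, higher. Of 8 skeletal muscle markers 1 was called, or 8 without AdCKO replicate 3 or 5 and 0 without any other single library.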

How the data were processed

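Polyadenylated RNA of iBAT from 10 mice was sequenced. Per the study's methods, the authors aligned reads by STAR (mm9), took exon read numbers from iRNA-seq and scaled these by DESeq2. The deposited signal is such a normalized read number per kb of exon and is not a count. The transformation behind them is not given in the sources used here, and no value is 0 (the smallest is 0.0532), so that depth before normalization is unknown and the precision given is the spread between mice. Totals of normalized reads were 7.62e+06 to 8.17e+06 in Control and 5.42e+06 to 5.84e+06 in AdCKO. The authors' deposited fold changes, p-values and gene lists were not used.

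Groups and replicate numbers came from the sample labels. After adding a pseudocount of 1 and taking log2, groups were compared over the 11244 genes averaging at least 10 in Control or in AdCKO with limma 3.58.1 in R 4.3.3 (intensity trend, two-sided, Benjamini-Hochberg over all tested genes, adjusted p under 0.01), following the error rate and minimum level of the study. The method was tested on simulated data without the difference in library totals between the groups, so that test does not bear on the scaling. Ratios within libraries were compared by an exact two-sided permutation test. Tables were handled with pandas 2.3.3 and numpy 2.4.6 in Python 3.11.15, and figures drawn with matplotlib 3.10.9. Promoter windows came from RefSeq tables of GRCm38.p6, another build than that of the values, and exon overlaps from an mm9 gene annotation. Protein sequences were not used here.

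The 45 genes and the 17 other lists (5 of lysosomal genes and 12 of cell types and sex-linked genes) were chosen with earlier results of these data known. Values in every library are given for Ctss, Laptm5, Ctsb, Lamp1, the 3 MiT-TFE factors and, in each role group, the called gene with the smallest p and that with the largest difference in each direction. Every member not called is named, and from each list at most the 4 genes with the smallest p and those called against the rest of it. Among the mTORC1 genes, the further ones named were chosen after their values were seen, as was the description of Control replicate 3. Alternatives were pseudocounts of 0.1 and 10, testing without a filter or from a mean of 1, equal library totals, quantile normalization, limma with no trend or a robust one, a replicate block, fits without 1 library each and an adjusted p of 0.05. Leaving out the AdCKO libraries with summed skeletal muscle markers over 1000 was added after seeing the data.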

Additional observations from a re-analysis of the deposited data

Results flagged for a closer look

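In 3 of the 90 groups of 5 libraries examined (45 genes in Control and in AdCKO), 1 library lay far from the other 4 by Dixon's test, which chance alone flags in about 1 group in 20. Gla in AdCKO replicate 5 was at 37.8 reads per kb against 53.0 to 58.9 in the other AdCKO libraries. Fuca1 in AdCKO replicate 3 was at 169 against 195 to 206. Sgsh in Control replicate 4 was at 27.1 against 38.3 to 41.0. Gla was called higher with and without its library, Fuca1 was not called without its library (-0.20, adjusted p = 0.0167) and Sgsh was called lower without its library (-0.37, adjusted p = 0.00992).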

How the results depend on the processing

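Of the 24 higher calls, 21 held at the threshold of 0.01 under each other pseudocount, filter, scaling and model, under the replicate block and with any 1 library left out (the exceptions were Idua, Lamp1 and Mitf). Without the AdCKO libraries that carry skeletal muscle markers, 18 of them held as well. Of the 5 lower calls, only Smpd1 held under all of these. With the same total in every library, 39 members were called higher and 1 lower in place of 24 and 5, and 59 and 6 of the other lysosomal genes in place of 30 and 21. All 11244 tested genes gave 6811 higher and 1098 lower there, in place of 2879 and 3152. That scaling turned Ctsf to 0.04, Fuca1 to 0.24, Sgsh to 0.21, Ids to 0.45, Lipa to 0.43, Npc2 to 0.32 and Mcoln1 to 0.40, and quantile normalization turned Lipa to 0.21, Npc2 to 0.22 and Mcoln1 to 0.03. With 1 library left out, Ids ran from -0.07 to 0.02, above 0 without Control replicate 1, and Ppt1 from -0.01, without Control replicate 5 or AdCKO replicate 1, to 0.10. Without the AdCKO replicates 1, 2 and 4, which leaves 2 AdCKO libraries, 18 members were higher and 4 lower, and Lipa, Ppt1 and Cln3 changed sign, to 0.02, -0.08 and -0.03. The cause of these changes was not tested, beyond the fewer libraries of the last.

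Leaving out each library in turn gave 27 to 30 called members (23 to 25 higher, 4 to 6 lower), 44 to 53 calls among the other lysosomal genes (25 to 33 higher, 19 to 23 lower), and differences of 4.29 to 4.70 for the log2 ratio of Ctss to Ctsb and 2.94 to 3.43 for that of Laptm5 to Lamp1. Same-numbered libraries did not deviate together (correlations across genes of -0.268 to 0.098, and 0 of the 5 Control libraries closest to their own number). No pairing by replicate number was seen, but 5 libraries in each group cannot exclude one. With the replicate number as a block, 22 members were higher and 4 lower, and the log2 ratios differed by 4.42 and 3.08, each with an exact p of 0.0625, the smallest that 5 pairs allow. Depth is unknown, which leaves the precision of the lowest genes, such as Galns, Gla and Mitf, to the spread between mice alone.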
